A study of Mus musculus with 8 samples.

Results

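The 10 genes described here encode inducible brakes on mitogen-activated protein (MAP) kinase signalling: the dual-specificity phosphatases Dusp1, Dusp2, Dusp4, Dusp5, Dusp6 and Dusp10, the Sprouty proteins Spry1 and Spry2, and the Sprouty-related proteins Spred1 and Spred2. These genes were taken by symbol from a table of 38918 gene rows, all 10 were found, and all 10 reached 1 CPM (TMM-scaled counts per 1000000 reads) in at least 1 of the 2 libraries, as did 10850 genes in all. The cells were the BMiFLT3 (15-3) line, pro-B cells of a mouse B-cell precursor leukaemia, infected with a retrovirus for blue fluorescent protein (BFP, the control) or with one for the transcription factor Klf2. Names in the table's header carry BFP in both groups, which is not explained there. The labels give no time after infection, no promoter of the construct and no number of cultures.

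In the ERK branch of MAP kinase signalling, a receptor activates RAS, which activates the kinases RAF, MEK and ERK in turn. ERK then induces transcription of several of its own inhibitors. DUSP proteins remove phosphates from the activating threonine and tyrosine of MAP kinases, whereas Sprouty and Spred proteins act further upstream, on the steps that activate RAS and RAF. The RNA of these genes therefore often follows recent pathway activity. In B-cell progenitors ERK is activated by cytokine receptors and by the pre-B-cell receptor.

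Each group is represented by 1 library, sequenced on 4 lanes that were deposited as 4 samples. The lanes of a library differed by about the counting error (chi-square per degree of freedom 1.30 in BFP and 1.28 in Klf2 on exon reads, 1.03 and 1.04 on uniquely placed reads) and were summed, so n = 1 per group, nothing could be tested across samples, and no p-value is given. The libraries held 30133978 (BFP) and 30835450 (Klf2) exon reads, between 7506567 and 7741626 per lane. Every interval is a 95% exact interval of a ratio of reads, Klf2 library over BFP library. It covers counting error only, since each group has 1 library. Reads carried no molecular identifiers, so copies of a molecule cannot be told from separate molecules. Klf2 itself had a ratio of 11.1 (9.93 to 12.6) on exon reads and of 30.7 (20.3 to 48.8) on reads across its exon junctions. Its reads outside exons, 35 in BFP and 17 in Klf2, had a ratio of 0.510 (0.268 to 0.935). Of 14 pro-B markers 13 were found by symbol and 9 reached 1 CPM. Of these 9, 7 had an interval below 1 and 2 above, against 37.3% and 37.1% of all genes that reached 1 CPM. The median over the 9 was -0.16 on the log2(CPM + 1) scale. Cd93 was at 0.614 and Cd79b at 0.753, and the surrogate light chain genes Vpreb1 and Igll1 at 1.49 and 1.43. The summed level was 3646 CPM in BFP and 3762 CPM in Klf2. The part of these markers in the differences below was not tested. The recombinase genes Rag1 (1 and 1 read) and Rag2 (7 and 4 reads), Dntt (1 and 9 reads) and the early marker Cd34 (2 and 0 reads) were under 1 CPM in both libraries.

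Most of the feedback genes were modestly lower in the Klf2 library, and Dusp5 was modestly higher. The lowest ratios were those of Spred1 at 0.674 (0.641 to 0.709), Dusp10 at 0.711 (0.573 to 0.882), Dusp6 at 0.720 (0.683 to 0.759) and Dusp1 at 0.728 (0.551 to 0.960). Dusp5 had a ratio of 1.19 (1.14 to 1.24). With 2-fold in either direction and an interval excluding 1 as the rule, 0 of the 10 were past it, against 8.12% of all measured genes (5.67% lower and 2.45% higher in Klf2). All 10 intervals lay wholly between 0.5 and 2, as for 84% of all measured genes.

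Of the 10 members, 6 had an interval below 1 (Dusp1, Dusp2, Dusp6, Dusp10, Spry2 and Spred1), against 37.3% of all measured genes, and 1 had an interval above 1, against 37.1%. The intervals of Dusp4, Spry1 and Spred2 held 1. With the libraries scaled on the weakest-expressed genes the count below 1 was 3 (Dusp2, Dusp6 and Spred1). On reads across exon junctions it was 2 (Dusp6 and Spred1). The calls of Dusp1, Dusp10 and Spry2 were thus lost in both. On junctions these genes had few reads, 9 and 2 for Dusp1, 12 and 16 for Dusp10, and 18 and 14 for Spry2. Dusp2 kept its call with that scaling but lost it on junctions, with 121 and 99 reads and a ratio of 0.833 (0.632 to 1.09). The median difference over the members was -0.33 on the log2(CPM + 1) scale, against -0.01 over all measured genes. Of the members 8 had a ratio below 1, and Dusp5 and Spry1 had one above it. The same 8 lay below the median difference of all measured genes, which by definition splits those genes evenly. The side of 1 on which Dusp4, Spry1 and Spred2 lie changed with the scaling.

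**Figure D1:**
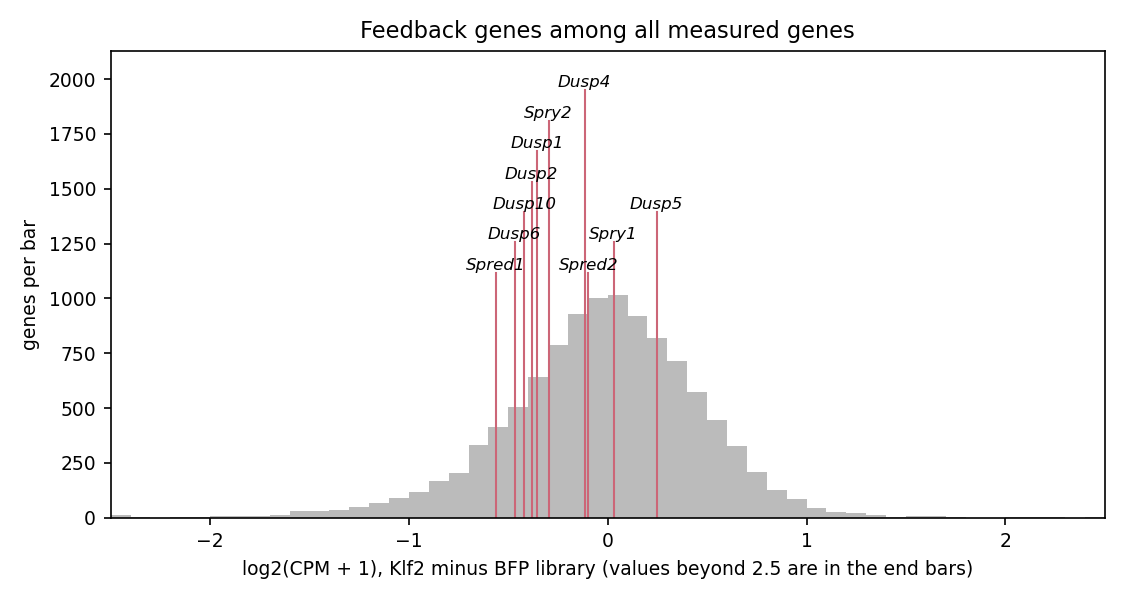
Histogram of the difference in log2(CPM + 1), Klf2 minus BFP library, over the 10850 measured genes (x axis, bars of genes per interval), with the 10 feedback genes as lines of arbitrary height. All 10 lie inside the body of the distribution, from Spred1 at -0.56 to Dusp5 at 0.25.

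In this pair of libraries weakly expressed genes had lower ratios than strongly expressed ones, so each member was also set against its own bin of measured genes, 5 bins of 2170 genes by mean CPM. Medians of the log2 ratio were -0.20, -0.13, -0.03, 0.06 and 0.17 from the weakest bin to the strongest. Relative to its own bin, Spred1 was at 0.648 and Dusp6 at 0.692 of the median gene, Dusp2 at 0.778, Dusp10 at 0.820, Dusp1 at 0.839 and Spry2 at 0.878. Dusp5, in the strongest bin, was at 1.06 times the median of that bin, against a ratio of 1.19 before this comparison. Spry1 was at 1.18, Dusp4 at 1.03 and Spred2 at 0.898. In all, 7 members lay below the median of their own bin.

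Levels of different genes were compared per length of exon, as deposited RPKM (reads per kilobase of exon, scaled to all gene reads of the lane). In BFP the mean over lanes was 52.2 RPKM for Dusp5, 34.7 for Dusp6, 21.8 for Dusp2, 16.0 for Spred1, 10.6 for Spred2 and 7.20 for Spry2. The other 4 genes lay far lower, at 1.99 RPKM for Dusp10, 1.85 for Spry1, 1.36 for Dusp1 and 0.790 for Dusp4. Among the 6 stronger genes, the lanes of neighbours in this order did not overlap in either library. The weaker neighbours did overlap in both libraries, so their order is not resolved. Together Dusp5 and Dusp6 made up 58.5% of the summed RPKM of the 10 genes in BFP and 64.4% in Klf2.

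**Figure D2:**
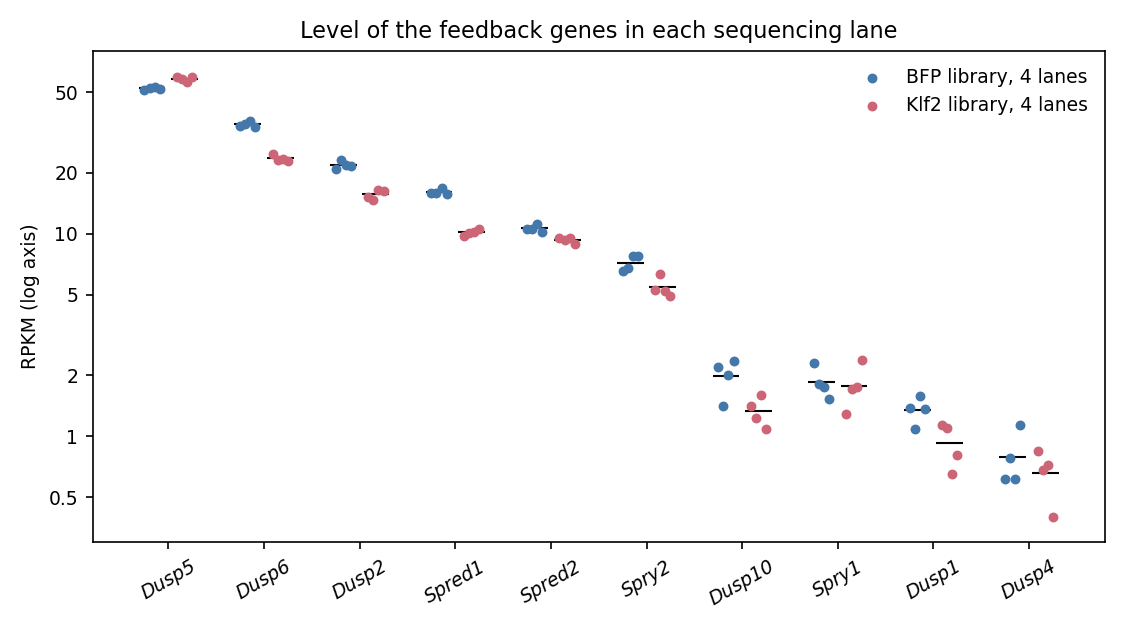
RPKM (y axis, log scale) of each gene in the 4 lanes of the BFP library and the 4 lanes of the Klf2 library, lanes 1 to 4 from left to right; black bars are means over lanes. The Klf2 lanes lie below all BFP lanes for Dusp6, Dusp2, Spred1, Spred2 and Spry2 and above them for Dusp5, and the lanes overlap for the 4 weaker genes; lanes show the counting error of 1 library, not the spread between cultures.

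The RPKM ranges of the lanes were apart and lower in Klf2 for 5 members, against 37.9% of measured genes, and apart and higher for 1, against 26.5%. TMM, the scaling of the CPM ratios, raises Klf2 over BFP by 0.09 on the log2 scale relative to RPKM. Spred2 had lanes apart on the RPKM scale, while its CPM interval held 1.

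Dusp6 encodes the cytoplasmic phosphatase most specific for ERK and is induced by ERK activity through ETS factors. It lies on chromosome 10, 99263231 to 99267488 (mm10), plus strand, with 3 exons and no overlapping gene in GENCODE. Its RPKM was 34.0, 35.0, 36.1 and 33.8 in BFP lanes 1 to 4 and 24.7, 23.2, 23.3 and 22.9 in Klf2 lanes 1 to 4. The highest Klf2 lane was thus well below the lowest BFP lane. From 3453 and 2390 reads, its level was 111 CPM in BFP and 79.98 CPM in Klf2, the ratio of 0.720 given above.

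Dusp5 encodes a nuclear phosphatase that dephosphorylates ERK and also anchors it in the nucleus. It lies on chromosome 19, 53529109 to 53542431, plus strand, with 4 exons, and 1 antisense gene overlaps it in GENCODE, whose reads cannot be told apart from its own because the use of strand in counting is not stated. Its RPKM was 51.1, 52.5, 53.1 and 52.1 in the BFP lanes and 59.6, 57.8, 56.2 and 59.5 in the Klf2 lanes. Every Klf2 lane was above every BFP lane. The level was 148 CPM in BFP from 4589 reads and 175 CPM in Klf2 from 5237 reads.

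The balance of these ERK phosphatases within a library does not depend on a scaling factor shared by all genes. It still carries the trend with expression level, since Dusp5 and Dusp6 lie in different bins (medians 0.17 and 0.06). Per length of exon, Dusp5 RNA was 1.503 times Dusp6 RNA in the BFP library and 2.48 times in the Klf2 library. The ratio ran from 1.47 to 1.54 over the BFP lanes and from 2.41 to 2.60 over the Klf2 lanes. It was 1.65 times larger in Klf2 (1.54 to 1.76, conditional exact interval of the 4 read counts).

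The start regions of Dusp5, the 1 member with an interval above 1, and of Spred1 and Dusp6, the members with most reads among those with an interval below 1, are shown next, chosen with these values known. Each runs from 250 bases before to 50 after the start site, 5′ to 3′ on the gene's strand, from RefSeq (GRCm38.p6). Capitals mark CACCC and GGGCGG on either strand, letters that Krüppel-like and SP factors are known to bind.
Dusp5, chr19:53528895-53529194 (plus strand): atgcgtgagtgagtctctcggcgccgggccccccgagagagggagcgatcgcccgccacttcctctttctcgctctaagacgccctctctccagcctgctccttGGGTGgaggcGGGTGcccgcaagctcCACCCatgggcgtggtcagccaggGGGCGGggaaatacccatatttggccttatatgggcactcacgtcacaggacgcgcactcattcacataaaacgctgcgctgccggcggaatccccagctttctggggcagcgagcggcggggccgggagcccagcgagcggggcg
Dusp6, chr10:99262981-99263280 (plus strand): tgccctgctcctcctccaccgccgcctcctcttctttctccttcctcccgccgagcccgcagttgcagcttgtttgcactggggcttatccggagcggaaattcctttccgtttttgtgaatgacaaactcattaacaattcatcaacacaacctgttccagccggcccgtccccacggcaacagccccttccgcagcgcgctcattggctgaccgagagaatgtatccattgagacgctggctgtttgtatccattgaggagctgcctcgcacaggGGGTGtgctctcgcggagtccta
Spred1, chr2:117120821-117121120 (plus strand): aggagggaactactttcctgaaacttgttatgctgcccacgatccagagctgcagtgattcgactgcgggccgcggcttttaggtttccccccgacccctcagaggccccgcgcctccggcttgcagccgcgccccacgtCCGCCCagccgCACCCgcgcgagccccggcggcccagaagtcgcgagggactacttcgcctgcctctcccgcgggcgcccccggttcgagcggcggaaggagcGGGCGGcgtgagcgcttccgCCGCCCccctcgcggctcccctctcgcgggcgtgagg

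The Dusp5 window holds 3 matches of CACCC and 1 of GGGCGG, the Dusp6 window 1 and 0, and the Spred1 window 1 and 3. Dusp5 also holds 2 CArG boxes, the letters known to bind serum response factor, side by side: CCATATTTGG from 82 bases before the start site and CCTTATATGG from 72 bases before it. Of all 32851 windows in the RefSeq table, 1.63% hold a CArG box. Dusp1 holds 1 TGACGTCA, the cyclic AMP response element, 143 bases before its start site, as do 1.79% of all windows.

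RefSeq windows were matched by symbol for 9 of the 10 members, not for Dusp4. Of the 9, 6 hold CACCC, against 57.5% of all windows, and 7 hold GGGCGG, against 35.7%. The members' windows had a median GC content of 64.3%, against 52.7% in all windows. All windows, of 27025 gene symbols, were used whether or not the gene was expressed here. The shares among measured genes alone were not computed. None of the 9 holds CCGGAAG, a form of the letters that ETS factors bind (8.86% of all windows), or the AP-1 letters TGAGTCA (5.20%). Other forms of ETS sites were not searched, so a lack of such sites is not shown. All motifs were searched on both strands, and CACCC and GGGCGG matches can overlap. The RefSeq start of Dusp10 lies 21079 bases into the gene as the table draws it, and that of Spred1 lies 303 bases before it. A match is a description of letters and says nothing of binding in these cells.

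Dusp2, an inducible nuclear phosphatase known from activated lymphocytes, was the strongest of the remaining phosphatases. It lies on chromosome 2, 127336159 to 127338376, plus strand, and no gene overlaps it. Its RPKM was 20.8, 23.0, 21.9 and 21.6 in the BFP lanes and 15.3, 14.7, 16.4 and 16.2 in the Klf2 lanes, with no overlap. The ratio was 0.762 (0.705 to 0.823), from 1554 reads in BFP and 1138 in Klf2.

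Dusp1 and Dusp4, the other inducible nuclear phosphatases of the list, were weakly expressed. Dusp1 (chromosome 17, 26505590 to 26508519, minus strand) is an immediate-early gene whose product acts on p38, JNK and ERK. It had 130 reads in BFP and 91 in Klf2, with lanes between 1.09 and 1.59 RPKM in BFP and between 0.655 and 1.14 in Klf2. These lanes overlapped, and the interval of the ratio, 0.551 to 0.960, came close to 1. Dusp4 (chromosome 8, 34807297 to 34819894, plus strand), an ERK and JNK phosphatase, had 77 and 66 reads, a ratio of 0.892 (0.632 to 1.26). Its lanes ran from 0.618 to 1.14 RPKM in BFP and from 0.400 to 0.843 RPKM in Klf2, and no difference was detectable at this depth.

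Dusp10, which acts on p38 and JNK rather than ERK, was also weak. It lies on chromosome 1, 184013302 to 184075636, plus strand, and a gene on the opposite strand, 1700056E22Rik, overlaps it. The RPKM was 2.19, 1.41, 2.003 and 2.35 in the BFP lanes and 1.41, 1.23, 1.60 and 1.08 in the Klf2 lanes. The highest Klf2 lane was above the lowest BFP lane. The ratio of 0.711 rests on 215 reads in BFP and 147 in Klf2.

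Spred1 had the lowest ratio of the 10 members. Its product recruits neurofibromin, a RAS inactivator, to the membrane, and so lowers RAS activity. It lies on chromosome 2, 117121374 to 117182279, plus strand, with 9 exons. Its RPKM was 15.8, 15.8, 16.8 and 15.6 in the BFP lanes and 9.74, 10.05, 10.2 and 10.6 in the Klf2 lanes. All Klf2 lanes lay far below the BFP lanes, and the level was 124 CPM in BFP (3862 reads) and 83.7 CPM in Klf2 (2501 reads). Of all measured genes, 12.3% had a lower log2 difference than Spred1.

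Spred2, its close relative (chromosome 11, 19924375 to 20024026, plus strand), differed little. Its RPKM was 10.5, 10.6, 11.2 and 10.2 in the BFP lanes and 9.48, 9.36, 9.57 and 8.95 in the Klf2 lanes, and its CPM ratio was 0.934 (0.872 to 1.0004), or 1.08 when the libraries are scaled on the weakest bin of genes. Per length, Spred1 RNA was 1.51 times Spred2 RNA in BFP and 1.09 times in Klf2. The ratio of the pair was thus 0.722 times as large in Klf2 (0.662 to 0.786), with lanes from 1.49 to 1.53 in BFP and from 1.03 to 1.18 in Klf2.

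Of the Sprouty genes, whose products are recruited to activated receptors and block signalling to RAS and RAF, Spry2 had an interval below 1 and Spry1 one that held 1. Spry2 (chromosome 14, 105891949 to 105896819, minus strand) was at 6.55, 6.75, 7.74 and 7.77 RPKM in the BFP lanes and at 5.28, 6.30, 5.25 and 4.95 in the Klf2 lanes. The lanes did not overlap, though the second Klf2 lane came near the lowest BFP lane, and the ratio was 0.803 (0.704 to 0.915). Spry1 (chromosome 3, 37639947 to 37644598, plus strand, overlapped by 1 gene on the other strand) had 191 and 188 reads, a ratio of 1.02 (0.833 to 1.26). Its lanes spread from 1.54 to 2.29 RPKM in BFP and from 1.29 to 2.38 in Klf2.

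Reads across exon junctions and reads of a gene outside its exons, which can come from unspliced RNA, are other readouts of the same libraries. On junction reads Spred1 (241 in BFP, 119 in Klf2) had a ratio of 0.502 (0.400 to 0.628) and Dusp6 (122 and 79) of 0.659 (0.490 to 0.882). These were the only members with a junction interval below 1, against 26.7% of the 9217 measured genes with at least 20 junction reads, and none had an interval above 1, against 29.2%. Dusp1 (9 and 2), Dusp4 (0 and 2) and Spry1 (1 and 0) did not reach 20 junction reads. Dusp5 had 357 and 394 junction reads, a ratio of 1.12 (0.971 to 1.30). Spred2 had 141 and 108, a ratio of 0.779 (0.601 to 1.01), and Spry2 had 18 and 14, a ratio of 0.791 (0.364 to 1.68). Dusp10 had 12 and 16, a ratio of 1.36 (0.602 to 3.14), opposite in direction to its exon reads but on few reads.

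Outside exons, Dusp5 and Spred2 were higher in the Klf2 library. Dusp5 had 149, 134, 153 and 143 such reads in the BFP lanes and 215, 233, 204 and 208 in the Klf2 lanes, a ratio of 1.56 (1.40 to 1.74) against 1.19 on exon reads. Spred2 had 123, 159, 119 and 132 in the BFP lanes and 250, 243, 210 and 227 in the Klf2 lanes, a ratio of 1.83 (1.64 to 2.04) against 0.934 on exon reads. For both genes every Klf2 lane was above every BFP lane. The share of Spred2 gene reads that lay outside exons was 23.4% in BFP and 37.2% in Klf2, and few reads crossed an exon-intron boundary (3 and 0).

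An interval above 1 outside exons was found for 29.3% of the 9844 measured genes with at least 20 such reads, and the median ratio over them was 0.999. A ratio outside exons that exceeded the exon ratio by as much as for Spred2 was found for 2.96% of them, and by as much as for Dusp5 for 18.0%. Spred1, with 243 and 189 reads outside exons, had a ratio of 0.816 (0.671 to 0.991) there, the only member interval below 1, against 26.6% of genes. A ratio below 1, and below that median of 0.999, was found for 7 members. Among these, Dusp2 (11 and 7 reads) and Dusp4 (8 and 2 reads) had fewer than the 20 reads set for all genes. Dusp1, with 0 and 1 reads, had no ratio. Dusp6 (64 and 43 reads) had a ratio of 0.705 (0.468 to 1.05), close to its exon ratio, with an interval that held 1. Whether the reads within Dusp5 come in part from its antisense neighbour was not tested.

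**Figure D3:**
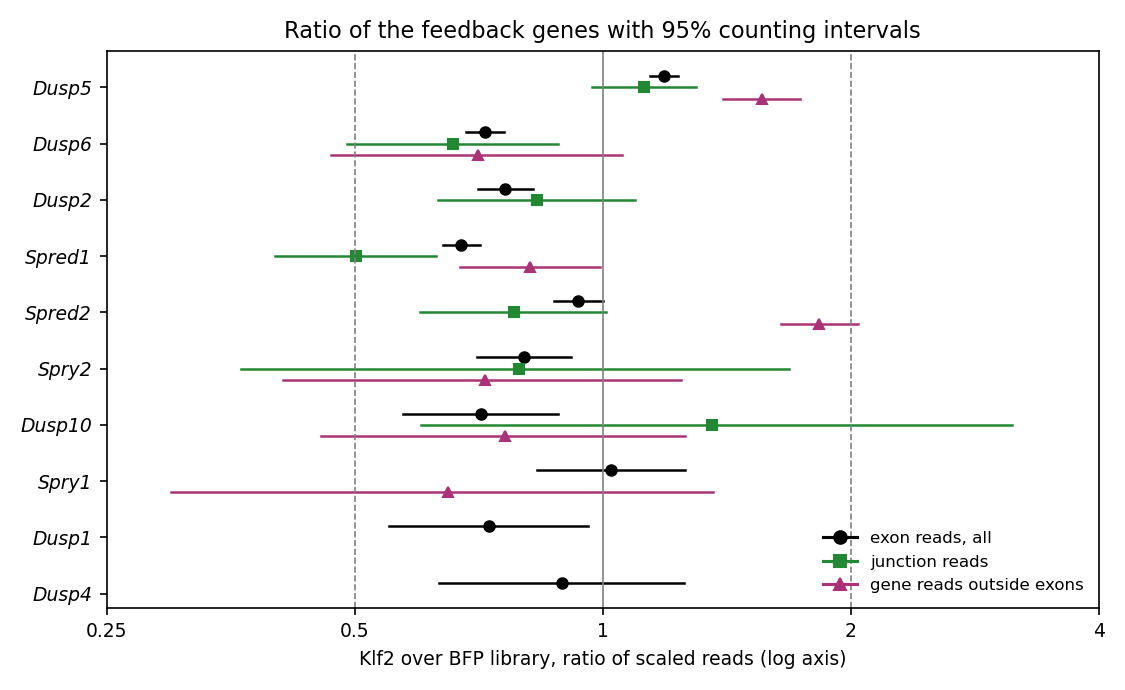
Ratio of the Klf2 over the BFP library (x axis, log scale) with 95% exact counting intervals, on all exon reads, on junction reads and on reads outside exons, for readouts with at least 20 reads in the libraries together; dashed lines mark 2-fold. Exon intervals all lie inside the dashed lines, and the reads outside exons of Dusp5 (1.56) and Spred2 (1.83) lie to the right of their exon reads.

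Among the MAP kinase phosphatase genes, grouped into classes by where and on which kinase they act, the members had a relative that stood on the other side. Dusp7, the other cytoplasmic ERK phosphatase expressed here, was at 9.72, 10.7, 12.1 and 11.0 RPKM in the BFP lanes and at 16.8, 16.1, 16.3 and 17.7 in the Klf2 lanes, a CPM ratio of 1.64 (1.53 to 1.76). Its lanes were all higher in Klf2, opposite to Dusp6, and Dusp7 RNA was 0.312 of Dusp6 RNA per length in BFP and 0.712 in Klf2, a ratio 2.28 times as large (2.09 to 2.49). Summed over Dusp6, Dusp7 and Dusp9, the cytoplasmic class was at 45.9 RPKM in BFP and 40.6 RPKM in Klf2. The nuclear inducible class, Dusp1, Dusp2, Dusp4 and Dusp5, was at 76.2 and 75.5 RPKM, with overlapping lanes, a lower Dusp2 and a higher Dusp5. These sums are RPKM without TMM, which raises Klf2 over BFP by 0.09 on the log2 scale. Small differences between the sums, and the overlap of their lanes, therefore depend on the scaling.

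The class that acts on JNK and p38 was lower in Klf2 as a sum. Dusp16 was at 2.27, 2.40, 2.26 and 1.94 RPKM in the BFP lanes and at 1.35, 1.33, 1.31 and 1.26 in the Klf2 lanes, a ratio of 0.630 (0.552 to 0.718). Summed over Dusp8, Dusp10 and Dusp16, the level was between 3.88 and 4.56 RPKM in the BFP lanes and between 2.39 and 2.94 RPKM in the Klf2 lanes. Dusp8 was under 1 CPM in both libraries (13 and 4 reads) and Dusp9 close to it (28 and 31 reads); both are named here to complete the classes.

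**Figure D4:**
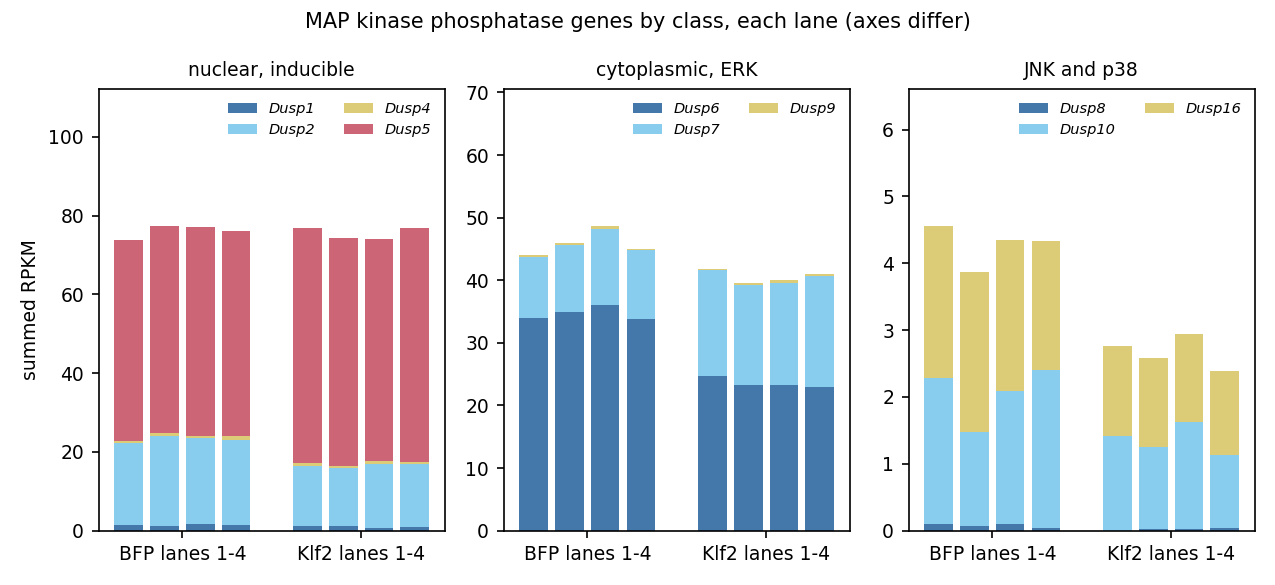
Summed RPKM (y axes, each from 0, with different ranges) of the MAP kinase phosphatase genes in the 4 lanes of each library, stacked by gene, for the nuclear inducible, the cytoplasmic ERK and the JNK and p38 classes. The nuclear sum is near 76 RPKM in both libraries, while the JNK and p38 sum is below 3 RPKM in every Klf2 lane and above 3.8 in every BFP lane. The sums are RPKM without the TMM factors.

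The other genes of the pathway were taken from lists written with earlier results of these data known. Of 12 measured further dual-specificity and MAP kinase phosphatases, 4 had an interval below 1 and 3 above, against 37.3% and 37.1% of all measured genes. None was past 2-fold, against 8.12%. Among these phosphatases Dusp3, an atypical one, had a ratio of 0.557 (0.499 to 0.621) and Dusp22 of 0.611 (0.512 to 0.727). Of the remaining family, Spry4 had a ratio of 0.619 (0.510 to 0.748) on 296 and 176 reads, and Spred3 of 1.01 (0.763 to 1.34). Of 19 measured further brakes on receptor and RAS signalling, 10 had an interval below 1 and 5 above, against the same shares. The list median was -0.14, and 1 was past 2-fold. This was Cish at 0.332, of whose reads 36.9% were uniquely placed, so its value is uncertain. The RAS inactivators Nf1, at 0.573 (0.534 to 0.615), and Rasa3, at 1.67 (1.56 to 1.79), stood on opposite sides, and the adaptor gene Dok3 was at 0.599 (0.568 to 0.632).

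Counts in the cascades that these genes restrain are read against 37.3% of all measured genes with an interval below 1, 37.1% above 1, and 8.12% past the 2-fold rule. Of 23 measured genes of the RAS to ERK core, 12 had an interval below 1 and 7 above, and the median was -0.09. The RAS activators stood on both sides, with Rasgrp3 at 0.184 (0.144 to 0.232), the only one past 2-fold, Sos1 at 0.570, and Rasgrp2 at 1.91 (75.8% uniquely placed), while the adaptor gene Gab2 was at 0.508. Of 18 measured genes of the JNK and p38 cascades, 10 had an interval below 1 and 3 above, with a median of -0.12 and Gadd45a the 1 past 2-fold, at 0.463. The kinase genes Mapkapk3 and Map3k1 were at 0.544 and 0.665, and Gadd45g was at 0.550. In the ERK5 cascade, known to induce Klf2 in several cell types, 5 of 7 intervals lay below 1, with a median of -0.40. Mapk7, which encodes ERK5, was at 0.554 (0.505 to 0.607), and the upstream kinase gene Map3k2 was at 0.725. Of the target factors, Mef2c was at 0.743 and Mef2d at 1.35. Upstream receptors and adaptors had a median of -0.13 over 12 measured genes, with 7 intervals below 1, 4 above and none past 2-fold. Besides Vpreb1 and Igll1 given above, Plcg2 was at 1.75 and Csf1r at 0.623.

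The immediate-early and ERK-responsive transcription factor list had larger differences than the feedback genes. Past the 2-fold rule were 10 of 24 measured genes, all lower in Klf2, where 5.67% of all measured genes were, and the median was -0.66 on the log2(CPM + 1) scale, against -0.33 for the feedback genes. Of the 24, 18 had an interval below 1 and 1 above, against 37.3% and 37.1% of all measured genes. Egr2 was at 0.227, Egr3 at 0.171, Jun at 0.322 and Btg2 at 0.369. The difference between these lists was not tested. Housekeeping genes had a median of 0.20 over 16, with none past 2-fold. Of these 16, 12 had an interval above 1 and 4 below, so they were not a stable reference.

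Markers of other cells were low in both libraries. Summed over 15 myeloid markers in the table, 6 of which reached 1 CPM (3 past 2-fold lower and 1 higher in Klf2), the level was 23.2 CPM in BFP and 12.9 CPM in Klf2, with Ly6g, S100a8 and S100a9 at 0 in both. Of all measured genes, 5.67% were past 2-fold lower and 2.45% higher. Fcgr1 was at 0.150, Tyrobp at 0.195, Ccr2 at 0.426 and Mrc1 at 2.41. The 9 T-cell markers summed to 7.98 and 15.6 CPM, with Cd3e, Cd4, Cd8a and Cd8b1 at 0 in both and 2 past 2-fold higher (Lat at 2.40 and Thy1 at 2.41, with Zap70 at 1.55), and none of the erythroid or stromal markers reached 1 CPM. Their part in the differences of the feedback genes was not tested. In bulk RNA a lower share of expressing cells and less RNA per cell cannot be told apart, and with 1 library per group the construct and any other difference between the cultures or preparations cannot be told apart either.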

How the data were processed

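Poly(A) RNA was sequenced on a HiSeq instrument, per the labels' protocols, which name 2 library kits without assigning them to libraries. CASAVA 1.8.2 and mm10 come from the submitters' processing notes. Aligner, counter and use of strand: not given in the sources used here. The authors' deposited counts per lane, per the file headers, are exon reads (all or uniquely placed), gene reads and junction reads. Reads outside exons are gene reads minus exon reads. Deposited RPKM values were recomputed from those columns within 0.0258. The authors' deposited signed fold, a score per gene, was copied to the tables but not used.

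Lanes were summed, and CPM was scaled with TMM (edgeR 4.0.16, R 4.3.3; factors 1.03 for BFP and 0.969 for Klf2). Junction reads and reads outside exons were scaled by their own totals with the same factors. Ratios have exact Clopper-Pearson 95% intervals conditional on the summed reads. A gene was past the rule at a ratio of at least 2 in either direction, with an interval excluding 1 and at least 1 CPM in either library. The limit set by a count of 0 (3 reads) was 0.0996 CPM for the BFP library and 0.0973 CPM for the Klf2 library. The intervals and the rule were tested on simulated data that held counting error only, which says nothing of the spread between cultures. At least 98.2% of the exon reads of each member were uniquely placed. All members, and up to 4 genes of each other list with the largest log2(CPM + 1) difference, those past the rule first, are named, except where the text says otherwise; the members and lists were chosen with earlier results of these data known. Alternatives were total-count, DESeq2 1.42.0 and scaling on the weakest or strongest of 5 expression bins, other read classes, floors, pseudocounts and leaving out lanes. Promoter windows are RefSeq's, and gene overlaps are from GENCODE M21 on the same build. Protein sequences were not analysed here.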

Additional observations from a re-analysis of the deposited data

How the results depend on the processing

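No member was past the 2-fold rule under any alternative run. The members' median of -0.33 stayed below 0 in each, from -0.14 with scaling on the weakest of the 5 expression bins to -0.47 with scaling on the strongest, and leaving out a lane number moved it between -0.37 and -0.23. The counts of intervals were added as results after the data were seen. The count below 1, 6 of 10, was 3 with scaling on the weakest bin and 2 on junction reads, and 7 with total-count scaling, DESeq2 size factors or scaling on the strongest bin, each adding Spred2. It ran from 4 to 6 without a lane number: Dusp1 was lost without lane 3, and Dusp1 and Dusp10 without lane 4. The count above 1, Dusp5 alone, was 2 with scaling on the weakest bin (Dusp5 and Spred2) and 0 on junction reads. Dusp6 and Spred1 kept an interval below 1 in every alternative that gave one. Dusp10 changed direction on junction reads, with a ratio of 1.36 from 12 and 16 reads (the cause was not tested), and 2 ratios, those of Dusp4 and Spry1 on junction reads, could not be given because a library held 0. Dusp4, Spry1 and Spred2, whose intervals held 1, also crossed 1: Dusp4 (0.892) was at 1.03 with scaling on the weakest bin and 1.19 without lane 4, and Spred2 (0.934) at 1.08 with scaling on the weakest bin. Spry1 (1.02) was at 0.962 with total-count scaling, 0.963 with deposited RPKM, 0.912 with scaling on the strongest bin and 0.860 without lane 4. Ratios of Dusp6 ran from 0.641 to 0.830, of Spred1 from 0.502 to 0.776 and of Dusp5 from 1.06 to 1.37. Of the 108 member ratios under an alternative, 84 stayed inside the main counting interval. Over all genes, 266 were at least 2-fold higher and 615 lower. The higher count was 571 with scaling on the weakest bin (419 lower), 162 with scaling on the strongest (881 lower), 128 with deposited RPKM (559 lower), 432 with no floor and 121 with a floor of 10 CPM, where the lower count was 277. Leaving out a lane number gave 267 to 281 higher and 632 to 654 lower. No paired analysis was possible because the lanes of a number are parts of 1 library per group, which leaves no residual degrees of freedom among samples. The weak members, Dusp1, Dusp4, Dusp10 and Spry1, rest on 66 to 215 reads per library, and the lanes give no spread between cultures.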
